A study of Mus musculus with 12 samples.

Results

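The genes described here encode 10 enzymes of mitochondrial fatty acid beta-oxidation, and they were followed in eWAT, the epididymal white fat, of mice fed a normal or a high-fat diet. They are Cpt1a, Cpt1b and Cpt2 of the carnitine shuttle, the acyl-CoA dehydrogenases Acadvl, Acadl and Acadm, the trifunctional protein subunits Hadha and Hadhb, and the matrix enzymes Hadh and Echs1. They were taken by symbol, and all 10 were found among the 23474 genes of the expression table. The RNA-seq libraries came from male C57BL/6J mice aged 17 weeks, which had been fed 1 of 4 diets for 12 weeks from the age of 5 weeks. The ND group received a normal diet, the HFD group a high-fat diet, the GT group the HFD with 0.25% (w/w) of an ethanol extract of green tea, and the TJ group the HFD with 3% (w/w) of the Korean herbal medicine Taeeumjowitang. The labels give 10 mice for each group, and 3 libraries per group were sequenced, 12 in all, from whole tissue rather than from purified adipocytes. Expression is given as FPKM, the number of fragments per kilobase of transcript, scaled to the number of mapped fragments of the library. This allows for transcript length and library size, but a few very abundant transcripts can lower all other values of a library. Levels compared between libraries therefore depend also on what else a library holds.

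Fatty acids enter the mitochondrion as carnitine esters. Cpt1 on the outer membrane makes the ester and is the controlled step of the route, and Cpt2 on the inner membrane releases the acyl-CoA again. Cpt1a is the isoform known from liver and many other tissues, Cpt1b is known from muscle, brown fat and testis, and white fat carries both. Each turn of the spiral then consists of a dehydrogenation, a hydration, a further dehydrogenation and a thiolytic cleavage. Acadvl, Acadl and Acadm begin the turn on very long, long and medium chains. The trifunctional protein, made of the Hadha and Hadhb subunits, completes it on long chains at the inner membrane, while the soluble Echs1 (hydratase) and Hadh (3-hydroxyacyl-CoA dehydrogenase) serve short and medium chains in the matrix.

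Among the 10 genes only Hadha and Hadhb are neighbors. On chromosome 5 (GRCm38) Hadha covers bases 30118304 to 30155162 on the minus strand and Hadhb covers 30155248 to 30184593 on the plus strand. They are transcribed away from each other, and the 85 bases between their annotated starts overlap no annotated exon. This stretch is shown because it holds the start region of both subunits of 1 complex, which the results below compare. It is read from the RefSeq promoter sequences on the plus strand (chr5:30155163-30155247), its 9 CpG dinucleotides are in capitals, and its GC content was 69.4%.
Hadha-Hadhb gap: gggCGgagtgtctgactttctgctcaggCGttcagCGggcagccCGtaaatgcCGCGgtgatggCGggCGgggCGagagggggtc

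RefSeq promoter sequences, from 250 bases before to 50 bases after the start, were matched for 9 of the 10 genes, with Cpt1b as the exception. They were searched on both strands for the half-site AGGTCA, the letters to which PPAR and ERR nuclear receptors bind and which PPAR uses as a direct repeat. The half-site was present in 4 of the 9 promoters, Cpt1a, Acadvl, Acadm and Echs1, against 16.3% of 32851 mouse promoters of the same length. The repeat AGGTCANAGGTCA was found in 0 of the 9 and in 0.0396% of all promoters, and the extended site TCAAGGTCA was found in 0 of the 9 and in 0.423%. The 4 matches are shown to let their surroundings be compared, with the 6 letters in capitals in the direction of each gene. A match in these windows is a description of the letters, and binding was not measured.
Cpt1a, chr19:3323187-3323232, plus strand: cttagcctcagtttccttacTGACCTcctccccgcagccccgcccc
Acadvl, chr11:70015490-70015535, minus strand: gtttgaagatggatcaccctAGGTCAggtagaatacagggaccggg
Acadm, chr3:153944867-153944893, minus strand: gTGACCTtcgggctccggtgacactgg
Echs1, chr7:140116479-140116524, minus strand: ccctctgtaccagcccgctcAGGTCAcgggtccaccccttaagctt

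One library stood apart before any comparison was made. The library labelled ND replicate 1 held 99169 FPKM over 9 testis germ cell markers and 14874 FPKM over 9 epididymis markers, and its 8 adipocyte markers summed to 7152 FPKM against 17434 to 68463 FPKM elsewhere. Germ cell transcripts were also seen in ND replicate 3 (3036 FPKM) and HFD replicate 1 (2086 FPKM), while the other libraries held 0.685 to 168 FPKM. HFD replicate 2 held 1291 FPKM of epididymis markers, against at most 42.7 FPKM in all libraries other than it and ND replicate 1. Fat markers were expressed in every library, for example Adipoq at 202 to 3738 FPKM. Of 6 brown adipocyte markers, Cox8b ranged from 10.4 to 53.4 FPKM, highest in TJ replicate 2, and Cidea from 0.878 to 13.6 FPKM, while Ucp1 reached at most 5.05, Elovl3 1.75, Dio2 0.755 and Zic1 0.0481 FPKM. The 7 skeletal muscle markers in the table summed to at most 8.70 FPKM, in ND replicate 1. Results that involve the ND group are therefore given with and without ND replicate 1. Depth, read from the smallest steps between FPKM values, was roughly 10000000 fragments in ND replicate 1 and 14500000 to 20000000 in the other libraries, and no counting error can be derived from FPKM, so that precision rests on the spread between 3 libraries.

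Over the 11 libraries other than ND replicate 1, the 10 genes summed to 1009 to 1376 FPKM, and in ND replicate 1 they summed to 413 FPKM. Acadm was the most abundant in the HFD group at 201 ± 12.2 FPKM (SD, n = 3), in the GT group at 260.0 ± 9.04 FPKM (n = 3) and in the TJ group at 272 ± 19.3 FPKM (n = 3). Cpt1b was the least abundant in these 3 groups, at 6.36 ± 2.23, 2.81 ± 0.293 and 2.04 ± 0.132 FPKM. In the HFD group the order below Acadm was Hadhb, Acadl, Hadh, Hadha, Echs1, Acadvl, Cpt1a, Cpt2 and Cpt1b. Hadhb, Acadl and Hadh overlapped with their neighbors in this order, as did Acadvl with Cpt1a, while the other neighbors were apart in all 3 libraries. In the TJ group Hadh, at 242 ± 52.5 FPKM, overlapped with Acadm at the head of the order, and Echs1, at 154 ± 26.6 FPKM, overlapped with Acadl and Hadhb. In the ND group neighbors in the order overlapped throughout, since ND replicate 1 was the lowest library for 8 of the genes and the highest for Cpt1b and Cpt2.

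**Figure D1:**
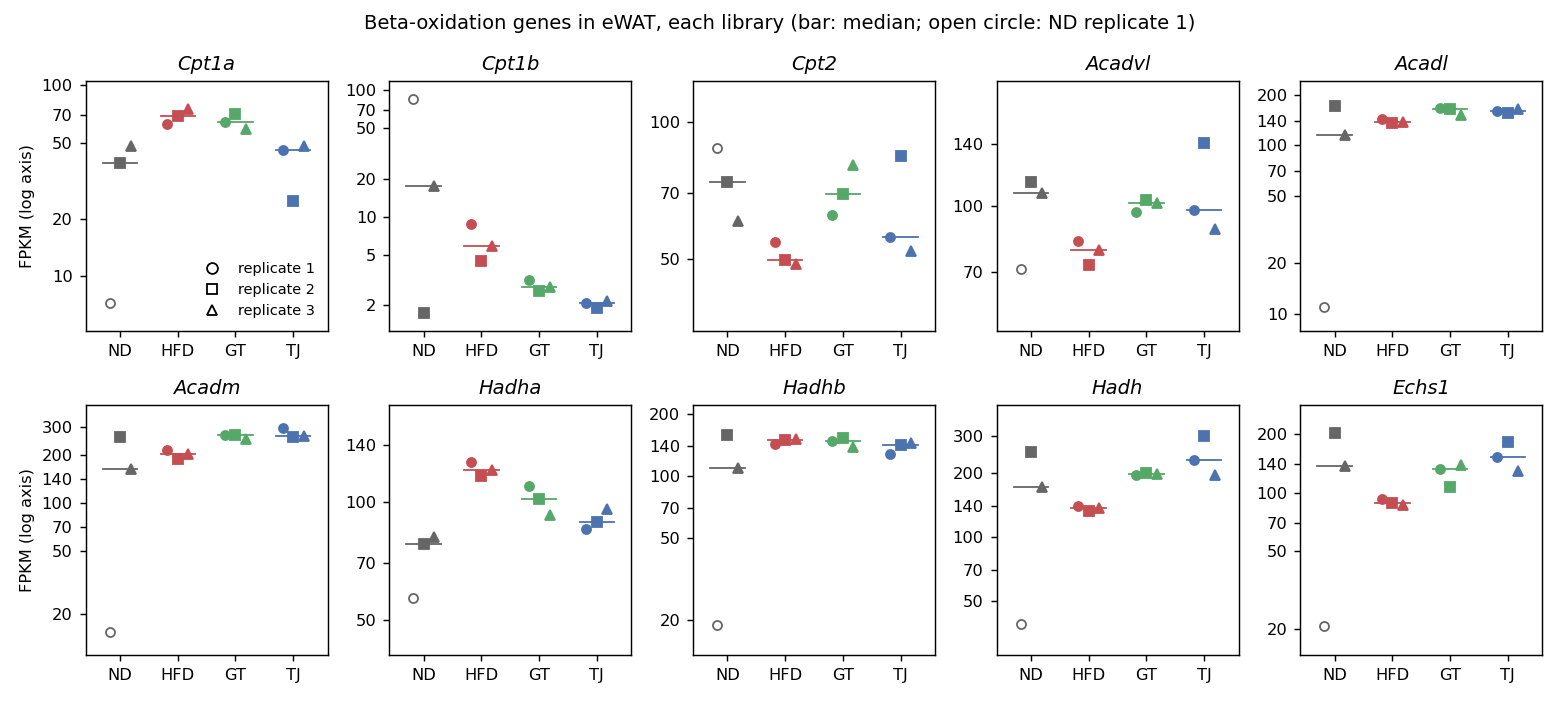
FPKM (log axis, a separate range for each gene) of the 10 genes in each of the 12 libraries, by group, with the marker shape giving the replicate number, a bar at the group median and an open circle for ND replicate 1. Hadh and Echs1 lay higher in all TJ and GT libraries than in all HFD libraries, Hadha and Cpt1b lay lower, and ND replicate 1 lay apart from the other ND libraries for most genes.

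The comparison of the TJ group with the HFD group asked how the pathway was expressed when the herbal medicine was added to the same diet. The 2 soluble matrix enzymes, Hadh and Echs1, were upregulated in the TJ group, by 1.74-fold and 1.70-fold, and Cpt1b was downregulated 2.35-fold on the scale of log2(FPKM + 1). The other 7 genes did not pass both thresholds, which were an adjusted p-value under 0.05 in limma and a fold change of at least 1.5. So 3 of the 10 genes were DEGs, 2 upward and 1 downward, where 18.5% of the 12807 tested genes were DEGs, 7.41% upward and 11.1% downward. The median log2 fold change of the 10 genes was 0.24, beside -0.14 over all tested genes. The 949 upward and 1417 downward calls among all genes became 1229 and 1177 under median-of-ratios scaling, and 1543 and 1151 under quantile normalization, which moved the median of all genes to -0.03 and 0.03.

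In the carnitine shuttle, Cpt1b was expressed at 8.81, 4.44 and 5.83 FPKM in the HFD libraries and at 2.06, 1.91 and 2.17 FPKM in the TJ libraries. Every TJ library was below every HFD library, and the log2 fold change was -1.23 (SE 0.231, limma adjusted p = 0.0256). Germ cell markers were also lower in the TJ group, at 0.685 to 9.39 FPKM against 29.8 to 2086 FPKM over 9 markers, with all 9 fitted values negative and 0 of them called, and their part in the Cpt1b result was not tested. Without HFD replicate 1, which held most of these transcripts, Cpt1b differed by a log2 value of -1.003 (limma adjusted p = 0.0533). Cpt1b lies wholly within the longer gene model Gm44502 on the same strand, and Chkb ends 496 bases away on that strand. Chkb was at 22.6 to 33.7 FPKM in the HFD and 33.3 to 37.6 FPKM in the TJ libraries.

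Cpt1a, the more abundant isoform, was at 62.7, 69.3 and 75.4 FPKM in the HFD libraries and at 45.9, 24.7 and 48.4 FPKM in the TJ libraries. All 3 TJ values were below all 3 HFD values, yet the log2 difference of -0.84 (SE 0.260, 95% interval -1.45 to -0.23) had a limma adjusted p of 0.0583. TJ replicate 2 was the lowest, and without it the difference was -0.54 (limma adjusted p = 0.0258), under the fold threshold, while without TJ replicate 3 it was -1.01 (adjusted p = 0.0425) and past both thresholds. Cpt2, at 54.6, 49.8 and 48.8 FPKM in the HFD and 56.0, 84.3 and 52.2 FPKM in the TJ libraries, overlapped between the groups (log2 difference 0.29, SE 0.199, limma adjusted p = 0.289), and without TJ replicate 2 the difference was 0.08.

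The 3 acyl-CoA dehydrogenases lay higher in every TJ library than in every HFD library, and none of them was a DEG. Acadm was at 214, 189 and 201 FPKM in the HFD and 294, 258 and 263 FPKM in the TJ libraries, a log2 difference of 0.43 (SE 0.132, limma adjusted p = 0.0570). The difference was 0.45 for Acadvl (SE 0.195, adjusted p = 0.126), which TJ replicate 2 led with 141 FPKM and which differed by 0.25 without it, and 0.20 for Acadl (SE 0.119, adjusted p = 0.243). Acadvl shares 2119 bases with Dvl2 on the opposite strand, and since the library kit is not described as stranded, reads there cannot be assigned to 1 of them. Dvl2 was at 5.04 to 10.8 FPKM over all libraries, far below Acadvl.

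The subunits of the trifunctional protein did not follow the matrix enzymes. Hadha was at 127, 116 and 121 FPKM in the HFD libraries and at 85.6, 89.3 and 96.1 FPKM in the TJ libraries, with no overlap (log2 difference -0.42, SE 0.123, limma adjusted p = 0.0506). Hadhb was at 142, 149 and 151 FPKM in the HFD and 127, 140.4 and 144 FPKM in the TJ libraries, which overlapped (log2 difference -0.10, 95% interval -0.40 to 0.19, and 0.03 under median-of-ratios scaling).

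Hadh was at 140.5, 132 and 137 FPKM in the HFD libraries and at 231, 299.8 and 197 FPKM in the TJ libraries. The TJ values were higher in 3 of 3 libraries, with a log2 fold change of 0.80 (SE 0.178, limma adjusted p = 0.0313). Echs1 was at 93.1, 88.8 and 86.6 FPKM in the HFD libraries and at 152, 182 and 129 FPKM in the TJ libraries, also higher in 3 of 3 (log2 fold change 0.76, SE 0.159, limma adjusted p = 0.0286). For both genes TJ replicate 2 was the highest library, and without it the log2 fold changes were 0.64 and 0.64 with the calls kept. Echs1 overlaps Paox by 678 bases on the opposite strand, and Paox was at 5.77 to 7.71 FPKM in the HFD and 10.2 to 17.9 FPKM in the TJ libraries.

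Of the 10 genes, 5 lay higher and 3 lower without overlap between TJ and HFD libraries, where 51.5% of all tested genes did not overlap, 20.1% higher and 31.4% lower. Adipocyte and macrophage markers moved in the same comparison: 6 of the 8 adipocyte markers were upregulated (sum 30884 to 68463 FPKM in the TJ against 17434 to 19920 FPKM in the HFD group) and 7 of the 8 macrophage markers were downregulated (710 to 2117 against 2894 to 4061 FPKM). Of 5 endothelial markers Vwf was upregulated (sum 258 to 401 FPKM in the TJ against 202 to 229.6 FPKM in the HFD group, without overlap), and of 6 mesothelial markers Wt1 was downregulated (3.58 to 18.0 against 15.6 to 23.9 FPKM). Their part in the results was not tested, and in whole tissue fewer cells of a type and less RNA per cell cannot be told apart. When HFD replicate 1, 2 or 3 or TJ replicate 1 was left out, 0 of the 10 genes and 0 of all genes were DEGs in limma, with 3732 to 4735 genes at an unadjusted p under 0.05. In these 4 fits the log2 fold changes stayed at -1.43 to -1.003 for Cpt1b, 0.78 to 0.83 for Hadh and 0.74 to 0.79 for Echs1. With the dependence of fold changes on transcript length taken out, Cpt1b alone was called and Hadh and Echs1 were at 0.60 and 0.51 (adjusted p = 0.0643 and 0.0715).

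**Figure D2:**
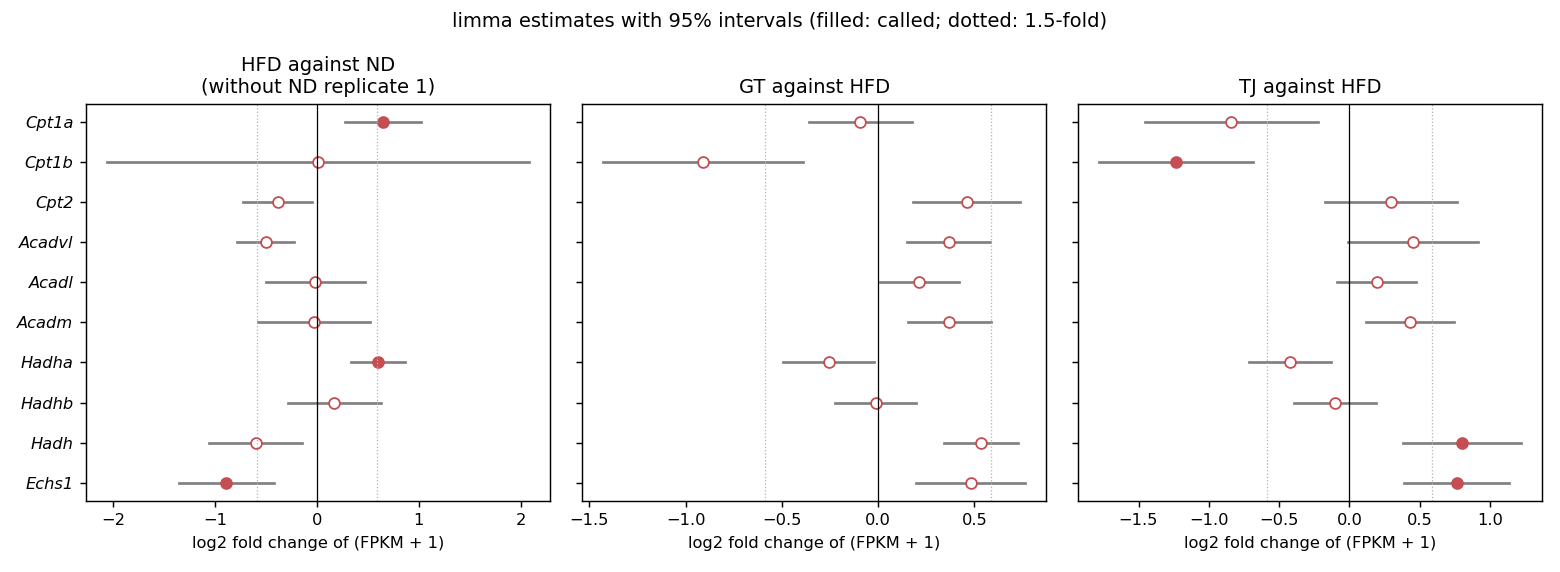
Log2 fold change of (FPKM + 1) on the x axis for the 10 genes, with 95% intervals, for HFD against ND without ND replicate 1, GT against HFD and TJ against HFD. Filled points passed both thresholds and dotted lines mark a 1.5-fold change, and each panel has its own x range. Filled points are Cpt1a, Hadha and Echs1 on the left and Cpt1b, Hadh and Echs1 on the right, and none in the middle.

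The comparison of the GT group with the HFD group asked the same of the green tea extract, and it shares its HFD libraries with the comparison above. Hadh had the best-supported difference, from 132 to 140.5 FPKM in the HFD libraries to 196, 199.6 and 199 FPKM in the GT libraries. Its log2 fold change was 0.53 (SE 0.0818, limma adjusted p = 0.0364), which is 1.45-fold and therefore short of the 1.5-fold threshold. So 0 of the 10 genes were DEGs in limma, where 3.63% of 12766 tested genes were (1.83% upward and 1.81% downward), and 8 of the 10 were at an unadjusted p under 0.05, as were 3744 of the 12766. Without overlap between the groups, 6 of the genes lay higher and 2 lower in the GT group, where 36.7% of all tested genes did not overlap, 12.3% higher and 24.4% lower. The median log2 fold change was 0.29, beside -0.12 over all tested genes. Among all genes 233 were called upward and 231 downward, against 367 and 154 under median-of-ratios scaling and 405 and 162 under quantile normalization, with medians of -0.02 and 0.03.

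Cpt1b was at 3.13, 2.56 and 2.75 FPKM in the GT libraries, below all HFD libraries, with a log2 difference of -0.91 (SE 0.219, limma adjusted p = 0.0618). The difference was -0.68 without HFD replicate 1 (adjusted p = 0.0704). Germ cell markers summed to 16.0 to 77.8 FPKM in the GT group, and their part in this difference was not tested. Cpt1a was at 64.3, 70.9 and 59.0 FPKM and overlapped with the HFD libraries (log2 difference -0.09, 95% interval -0.36 to 0.18, and 0.02 under median-of-ratios scaling). Cpt2, at 62.5, 69.7 and 80.5 FPKM, lay above every HFD library (0.46, SE 0.117, limma adjusted p = 0.0671).

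The dehydrogenases lay above the HFD group in all GT libraries. Acadm was at 266, 264 and 249.6 FPKM (log2 difference 0.37, SE 0.0913, limma adjusted p = 0.0647), and Acadvl was at 96.6, 103 and 102 FPKM (0.37, SE 0.0912, adjusted p = 0.0648). Acadl differed by 0.21 (SE 0.0868, adjusted p = 0.159). Echs1, at 132, 107 and 139 FPKM, differed by 0.48 (SE 0.119, limma adjusted p = 0.0647). Hadha was lower in all GT libraries, at 110.3, 102 and 92.7 FPKM (-0.26, adjusted p = 0.145), and Hadhb, at 148, 153 and 138 FPKM, overlapped with the HFD group (-0.01, 95% interval -0.22 to 0.20, and 0.10 under median-of-ratios scaling).

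Scaled by median-of-ratios factors, Hadh and Echs1 passed both thresholds in the GT comparison, at log2 fold changes of 0.64 and 0.59. Of the 8 adipocyte markers 3 were upregulated in the GT group and 0 of the 8 macrophage markers were called, although all 8 of the latter had negative fitted values (1197 to 2652 FPKM in the GT group). The 5 endothelial markers summed to 242 to 284 FPKM in the GT against 202 to 229.6 FPKM in the HFD group, without overlap, with 0 called and Tie1 at 0.42 (limma adjusted p = 0.0482), under the fold threshold. The part of these markers in the results was not tested.

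TJ and GT were fed at different doses, 3% and 0.25% of the diet, so the values stand side by side. Set directly against the GT group, 0 of the 10 genes were DEGs in the TJ group, where 0.148% of 12187 tested genes were (0.139% upward and 0.00821% downward), and 1 of the 10 was at an unadjusted p under 0.05, as were 2996 of the 12187. That gene was Cpt1a, with 45.9, 24.7 and 48.4 FPKM in the TJ and 64.3, 70.9 and 59.0 FPKM in the GT libraries, a log2 difference of -0.75 (SE 0.254, limma adjusted p = 0.152) and no overlap. Without TJ replicate 2 it differed by -0.45. Cpt1b was also lower in all TJ than in all GT libraries (-0.32, SE 0.143, adjusted p = 0.209), and the other 8 genes overlapped, where 34.4% of tested genes did not overlap, 19.5% higher and 14.9% lower. For Hadh and Echs1 the difference between the 2 groups was 0.27 (95% interval -0.16 to 0.70) and 0.28 (-0.14 to 0.71), so that neither equality nor a 1.5-fold difference can be read from it. Without TJ replicate 2 the differences of Hadh and Echs1 were 0.10 and 0.16, without TJ replicate 3 Hadh was at 0.41, and without GT replicate 2 Echs1 was at 0.17. Germ cell markers summed to 0.685 to 9.39 FPKM in the TJ against 16.0 to 77.8 FPKM in the GT group. Adipocyte markers summed to 30884 to 68463 against 24793 to 29192 FPKM, and brown adipocyte markers to 33.2 to 57.5 against 19.1 to 27.5 FPKM. Epididymis markers summed to 3.66 to 12.7 against 0.470 to 1.38 FPKM, and skeletal muscle markers to 0.896 to 2.22 against 0.477 to 0.712 FPKM. None of these sums overlapped between the groups, 0 of the markers tested were called, and their part was not tested. The median over the 10 genes was -0.05, beside -0.03 over all tested genes.

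The comparison of the HFD group with the ND group gives the background of the diet itself, and it depended on ND replicate 1. With all 6 libraries, 0 of the 10 genes were DEGs in limma, where 1.77% of 14430 tested genes were (1.73% upward and 0.0416% downward), and 1 of the 10 was at an unadjusted p under 0.05, as were 1672 of the 14430. The 10 genes had a median log2 fold change of 0.47, beside 0.07 over all tested genes, and 2 lay higher and 1 lower without overlap, where 26.4% of tested genes did not overlap, 20.5% higher and 5.89% lower. With the replicate number as a block, since the numbers correlated between these groups, 0 of the 10 and 0 of all genes were called, with 2239 genes at an unadjusted p under 0.05. The standard errors reached 1.21 for Cpt1b, 1.03 for Acadm and 1.01 for Acadl.

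Without ND replicate 1, 3 of the 10 genes were DEGs, where 15.4% of 13661 tested genes were, 11.0% upward and 4.34% downward. Cpt1a was upregulated in the HFD group, from 39.4 and 48.3 FPKM in ND replicates 2 and 3 to 62.7 to 75.4 FPKM, a log2 fold change of 0.65 (SE 0.147, limma adjusted p = 0.0420). Hadha was upregulated from 78.2 and 81.5 FPKM to 116 to 127 FPKM (0.60, SE 0.104, limma adjusted p = 0.0197), just over the fold threshold. Echs1 was downregulated from 202 and 138 FPKM to 86.6 to 93.1 FPKM (-0.89, SE 0.184, limma adjusted p = 0.0327). These 3 genes lay apart in all 5 libraries.

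Hadh was at 251 and 172 FPKM in these ND libraries, above all HFD libraries, with a log2 difference of -0.60 (SE 0.182, limma adjusted p = 0.0873). Acadvl was at 114 and 107 FPKM, and its difference of -0.51 (limma adjusted p = 0.0399) was under the fold threshold. Cpt2, at 73.9 and 60.8 FPKM, also lay above the HFD libraries (-0.39, adjusted p = 0.121), so that 2 genes were higher and 4 lower in the HFD group without overlap, where 47.2% of tested genes did not overlap, 28.0% higher and 19.2% lower. Acadl, Acadm and Hadhb overlapped, with differences of -0.02, -0.03 and 0.17. Cpt1b was at 1.73 and 17.4 FPKM in these ND libraries, a spread that enclosed the HFD group, and its difference was 0.01 (95% interval -2.06 to 2.08).

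Adipocyte and macrophage markers moved here too: without ND replicate 1, 6 of 8 adipocyte markers were downregulated and 1 was upregulated in the HFD group, and 8 of 8 macrophage markers were upregulated, at 2894 to 4061 FPKM against 423 and 548 FPKM. Of 6 mesothelial markers 2 were downregulated, Upk3b and Msln, and of 5 endothelial markers 0 were called. Their part was not tested. The calls rested on few libraries: leaving out HFD replicate 1, 2 or 3 as well left 0 of the 3, and leaving out ND replicate 2 left Echs1 alone (-0.62, limma adjusted p = 0.0353). That fit has a single ND library, which is assumed to vary like the HFD libraries, since these alone give its spread. Under median-of-ratios scaling 0 of the 10 were called. Over all genes 1015, 875 and 544 were called without HFD replicate 1, 2 and 3, 2255 without ND replicate 2 and 1837 under median-of-ratios scaling. With the replicate block, 0 of the 10 genes and 501 of all genes were called.

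The isoforms of Cpt1 can be compared within a library, where the scaling of the library cancels. In the ND libraries Cpt1b made up 92.1%, 4.21% and 26.5% of the summed FPKM of Cpt1a and Cpt1b, in the order of the replicates. The share was 12.3%, 6.02% and 7.18% in the HFD libraries, 4.64%, 3.48% and 4.46% in the GT libraries and 4.29%, 7.16% and 4.29% in the TJ libraries. It was lower in the GT than in the HFD group by 4.32 percentage points, without overlap, and the exact two-sided permutation test gave p = 0.1, the smallest that 3 against 3 libraries allow. Without HFD replicate 1 the difference was -2.41 points (exact permutation p = 0.2). The TJ group differed from the HFD group by -3.26 percentage points with overlap (exact permutation p = 0.2), and by -1.35 points without HFD replicate 1 (exact permutation p = 0.4). The HFD group differed from the ND group by -32.4 points (exact permutation p = 0.4), or -6.83 points without ND replicate 1 (exact permutation p = 0.8) and -50.8 points without ND replicate 2 (exact permutation p = 0.2). No design of this size can reach a p of 0.05 in this test. The libraries with the highest shares, ND replicates 1 and 3 and HFD replicate 1, were those with the most germ cell transcripts, and the part of these in the share was not tested.

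**Figure D3:**
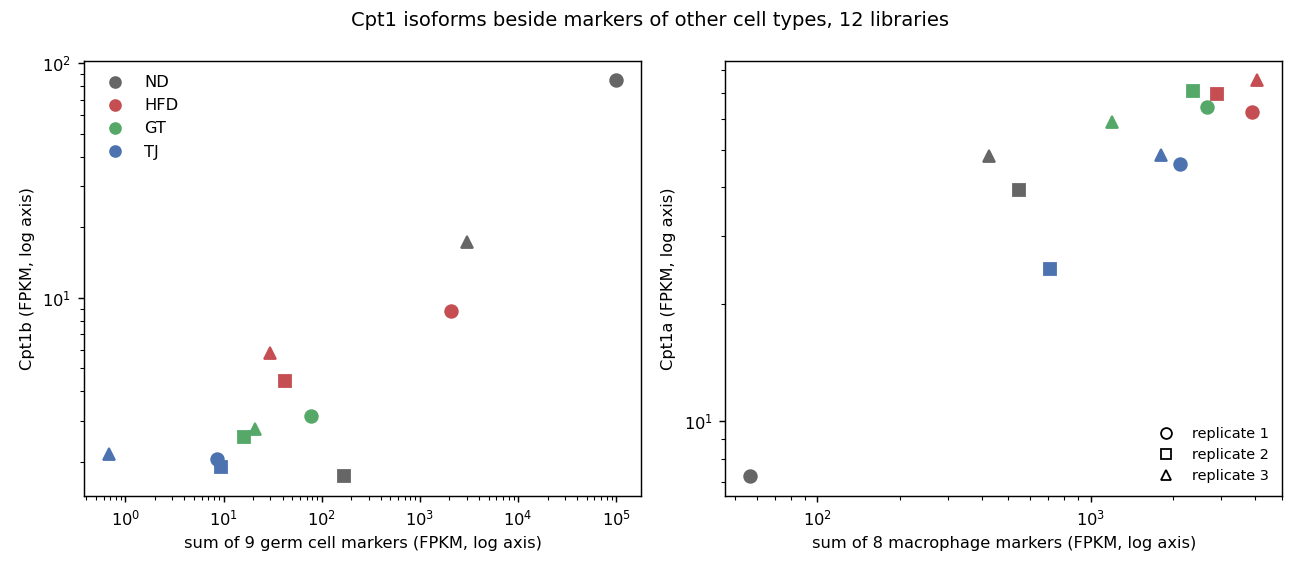
Left, Cpt1b against the summed FPKM of 9 testis germ cell markers, and right, Cpt1a against the summed FPKM of 8 macrophage markers, with 1 point per library, colors for the groups, shapes for the replicate numbers and log axes throughout. Cpt1b was highest in the 3 libraries with 2086 FPKM or more of germ cell markers, and Cpt1a was highest in the libraries of the HFD and GT groups and lowest in ND replicate 1 and TJ replicate 2.

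The head-to-head pair shown above differed in level within a library. The ratio of Hadha to Hadhb was 0.894, 0.779 and 0.800 in the HFD libraries, 0.747, 0.666 and 0.672 in the GT libraries and 0.672, 0.636 and 0.665 in the TJ libraries. Every GT and TJ library was below every HFD library. In ND replicates 2 and 3 the ratio was 0.496 and 0.751, and in ND replicate 1, where Hadha was at 57.0 and Hadhb at 19.0 FPKM, it was 3.00. The ratio of Acadm to Acadl ran the other way, at 1.39 to 1.49 in the HFD libraries, 1.595 to 1.64 in the GT libraries and 1.60 to 1.85 in the TJ libraries. Both ratios were picked after the values were seen and are given without a test.

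**Figure D4:**
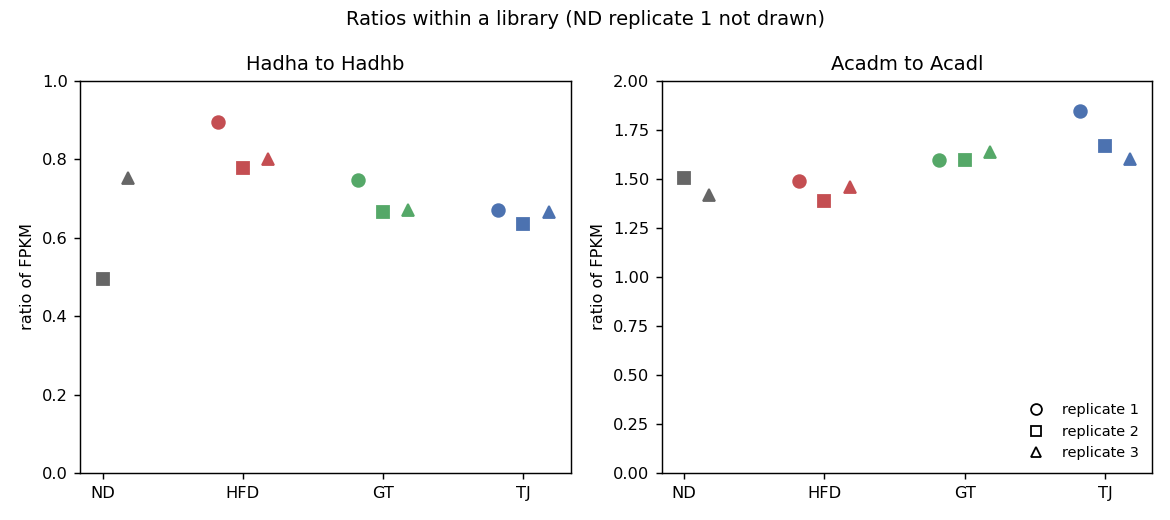
Ratio of FPKM within each library for Hadha to Hadhb (left) and Acadm to Acadl (right), by group on the x axis, with shapes for the replicate numbers and y axes from 0. ND replicate 1 (3.00 and 1.41) is left out of the drawing. The GT and TJ libraries lay below the HFD libraries on the left and above them on the right.

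A further list of genes related to the pathway runs from activation and import of the fatty acid to electron transfer and the handling of unsaturated, branched and odd chains. It holds 25 genes, not each of them a step of the pathway, and all 25 were tested. In the TJ group 7 of them were upregulated and 0 downregulated against the HFD group, 21 of the 25 fitted values were positive, and the median log2 fold change was 0.35. Over all tested genes 7.41% were upregulated and 11.1% downregulated, with a median of -0.14. Pcca and Pccb, the subunits of propionyl-CoA carboxylase that takes up the last 3 carbons of odd chains, rose by 1.18 (SE 0.199, limma adjusted p = 0.0244) and 0.77 (SE 0.207, adjusted p = 0.0435). Pcca was at 75.8, 60.3 and 60.7 FPKM in the HFD and 134, 194 and 129 FPKM in the TJ libraries. Mcee, the epimerase of the next step, rose by 0.71. Etfb, a subunit of the flavoprotein that takes electrons from the acyl-CoA dehydrogenases, rose by 0.97, Acat1, the mitochondrial acetoacetyl-CoA thiolase, by 0.81, and the dehydrogenase family members Acad10 and Acad11 by 0.82 and 0.71.

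The lowest of the 25 in this comparison was Echdc1, an enzyme that removes ethylmalonyl-CoA, at 69.6, 98.1 and 84.2 FPKM in the HFD and 37.9, 16.0 and 55.5 FPKM in the TJ libraries (-1.33, SE 0.416, limma adjusted p = 0.0594). When HFD replicate 1, 2 or 3 or TJ replicate 1 was left out, 0 of the 25 were called, with a median of 0.36 to 0.47. Without TJ replicate 2 or 3, Echdc1 was called as well, downward, and without TJ replicate 2 its log2 fold change was -0.84 (limma adjusted p = 0.0369). The upward calls numbered 7 under median-of-ratios scaling, 11 under quantile normalization, which also called Echdc1 downward, 4 with the length trend removed, 1 with no filter on low values and 0 with all 12 libraries in the fit.

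Against the same HFD libraries, 5 of the 25 were upregulated in the GT group and 0 downregulated, 22 fitted values were positive, and the median was 0.34, where 1.83% of all tested genes were upregulated and 1.81% downregulated, with a median of -0.12. Acad11 had the largest log2 fold change at 0.76 (SE 0.132, limma adjusted p = 0.0379), followed by Pcca at 0.67, Pccb at 0.67, Acsl1 at 0.62 and Acads at 0.59. Acsl1, the acyl-CoA synthetase that activates long chains in adipocytes, was at 367, 333 and 306 FPKM in the HFD, 484, 499 and 566 FPKM in the GT and 386, 245 and 378 FPKM in the TJ libraries. In the TJ group it differed by -0.02 from the HFD group and by -0.64 from the GT group (SE 0.216, limma adjusted p = 0.150). Cpt1c, the brain isoform of Cpt1, was the lowest of the list at -0.48 (limma adjusted p = 0.231), or -0.24 without HFD replicate 1. Left out in turn, each of HFD replicates 1, 2 and 3 and GT replicates 2 and 3 brought the count to 0. It was 3 with the length trend removed and 0 with no filter, with all 12 libraries in the fit or without a mean-variance trend.

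Between the TJ and GT groups 0 of the 25 were called in limma, from Acot13, an acyl-CoA thioesterase, at 0.67 (SE 0.228, adjusted p = 0.154) down to Echdc1 at -1.20 (SE 0.387, adjusted p = 0.143). Without TJ replicate 2 Acot13 and Echdc1 were at 0.42 and -0.71. In the HFD group without ND replicate 1, 5 of the 25 were downregulated and 0 upregulated against the ND group, with a median of -0.37, where 4.34% of all tested genes were downregulated and 11.0% upregulated, with a median of -0.02. They were Acad11 (-1.25), Pccb (-1.08), Hsd17b10 (-0.92), a dehydrogenase of branched chains and steroids, Acat1 (-0.75) and Eci1 (-0.69), an isomerase for unsaturated chains. Pccb was at 125 and 127 FPKM in ND replicates 2 and 3 and at 57.9 to 60.3 FPKM in the HFD libraries. The highest value was that of Echdc1 at 0.66 (adjusted p = 0.189). Without HFD replicate 1, 2 or 3 as well, 1 to 2 of the 5 were left, and with the replicate block 0 of the 25 were called. With ND replicate 1 in, 0 of the 25 were called, from Cpt1c at -1.16 to Echdc1 at 2.13.

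**Figure D5:**
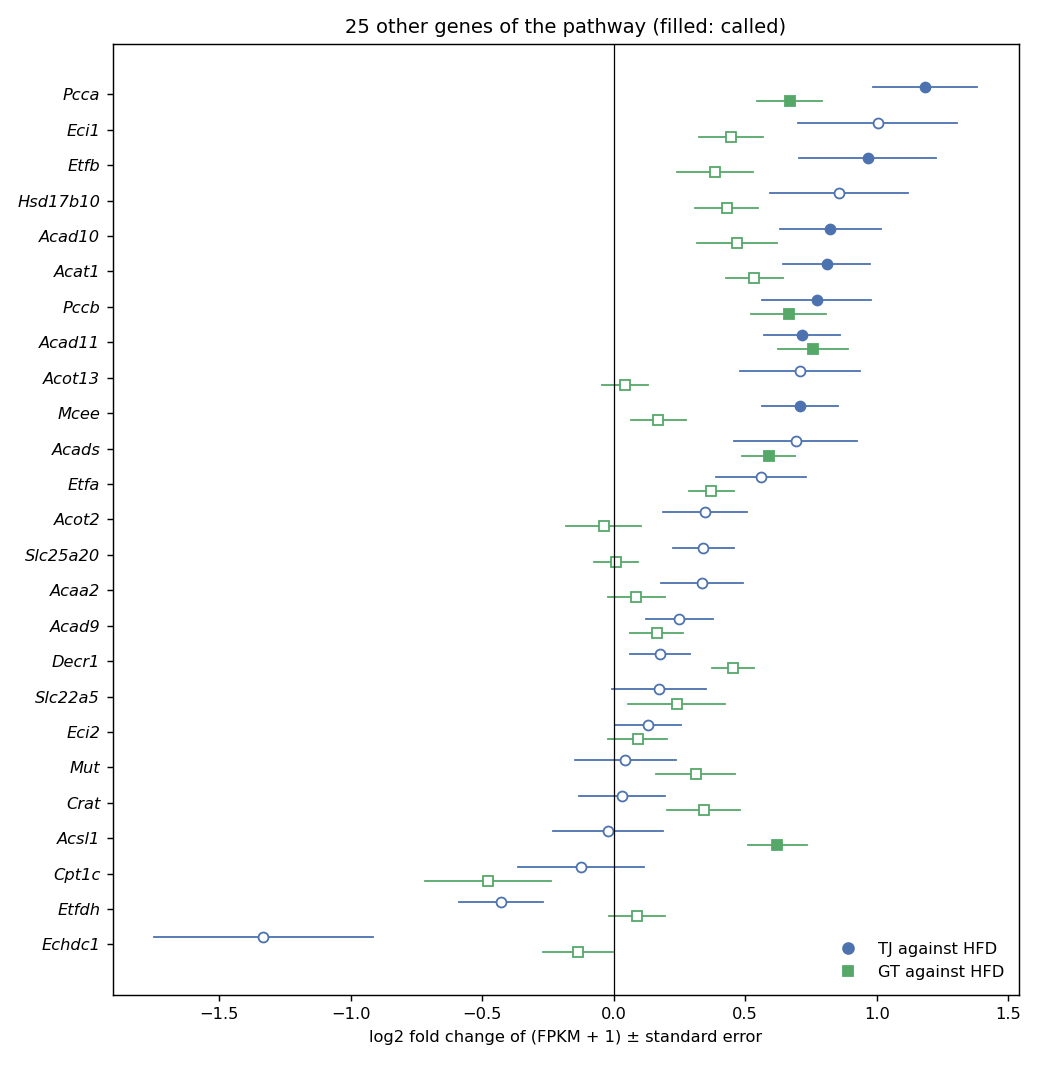
Log2 fold change of (FPKM + 1) with its standard error on the x axis for 25 further genes related to the pathway. The TJ group (circles) and the GT group (squares) are set against the HFD group, ordered by the TJ value. Filled points mark genes that passed both thresholds. Filled circles are the 7 upregulated genes of the TJ group and filled squares the 5 of the GT group, and Echdc1 at -1.33 is the lowest. The 2 comparisons share their HFD libraries.

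Regulators and targets of the pathway made up a further list of 14 genes. In the TJ group, where 12 of them were tested against the HFD group, Mlycd was upregulated at 0.98 (SE 0.236, limma adjusted p = 0.0361) and 0 genes were downregulated, where 7.41% of all tested genes were upregulated and 11.1% downregulated. Mlycd, which breaks down the malonyl-CoA that inhibits Cpt1, was at 17.5, 13.3 and 12.9 FPKM in the HFD and 26.3, 41.5 and 23.3 FPKM in the TJ libraries. Every TJ library was above every HFD library. The nuclear receptor Ppard was lowest at -0.51 (limma adjusted p = 0.0574). Without HFD replicate 1, 2 or 3 or TJ replicate 1, 0 of the list were called, and Mlycd also missed the thresholds with no filter, with all 12 libraries in the fit and with the length trend removed.

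Acacb, the acetyl-CoA carboxylase that supplies malonyl-CoA near the mitochondrion, was the 1 upregulated gene of 13 tested in the GT group, at 0.78 (SE 0.136, limma adjusted p = 0.0379), while Ppard was lowest at -0.21, where 1.83% of all tested genes were upregulated and 1.81% downregulated. It was at 16.0, 17.4 and 14.5 FPKM in the HFD, 24.4, 27.0 and 33.3 FPKM in the GT and 21.0, 42.5 and 23.5 FPKM in the TJ libraries, where its difference from the HFD group was 0.76 (SE 0.260, limma adjusted p = 0.0745), or 0.46 without TJ replicate 2. The call was lost without HFD replicate 1, 2 or 3 or GT replicate 2 or 3, and with no filter, with all 12 libraries in the fit or without a mean-variance trend.

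In the HFD group without ND replicate 1, Acacb and its cytosolic counterpart Acaca were downregulated against the ND group by log2 values of -1.31 (SE 0.192, limma adjusted p = 0.0120) and -1.63 (SE 0.151, adjusted p = 0.00318). Acaca was at 74.2 and 85.8 FPKM in ND replicates 2 and 3 and at 21.8, 27.5 and 26.2 FPKM in the HFD libraries. Esrra, the nuclear receptor ERR alpha, was upregulated by 0.66 (SE 0.141, limma adjusted p = 0.0355), from 9.17 and 10.5 to 14.7 to 17.3 FPKM. These were the calls among the 14 genes, where 11.0% of all tested genes were upregulated and 4.34% downregulated. Without HFD replicate 1, 2 or 3 as well, and likewise with the replicate block, Acaca alone was called, so that the calls of Acacb and Esrra were lost. With ND replicate 1 in, 0 of the 14 were called, from Ppargc1a at -0.71 to Angptl4 at 1.25. Between the TJ and GT groups 0 of 12 were called, from Pdk4 at -0.61 to Mlycd at 0.47.

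The genes whose pattern was most like that of each of the 10 were found from Pearson's r of log2(FPKM + 1) over the 12 libraries, among 13831 genes. The first of them were Selenof for Acadl (r = 0.998) and Acadm (0.997), Ppa1 for Hadh (0.995), Col5a2 for Cpt1a (0.994), Rsu1 for Hadhb (0.994), Tmem8 for Cpt1b (0.992), A530053G22Rik for Echs1 (0.992), Zyx for Hadha (0.987), Apoe for Acadvl (0.982) and Tmem120a for Cpt2 (0.880). Acadl was itself the second most like Hadhb (0.991) and the third most like Acadm (0.996). These values describe 12 libraries that share 4 diets and include ND replicate 1, which lies far from the others for most of these genes. Over the 9 libraries of mice fed the HFD, a set chosen after the values had been seen, other genes came first, such as Cryzl2 for Hadh (0.997), Pgrmc1 for Acadvl (0.994), Bcap31 for Acadm (0.988) and Ipo5 for Cpt1b (0.978).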

How the data were processed

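The authors filtered the reads, aligned them with STAR (version 2.4.0 and CASAVA 1.8.2 in the submitters' processing notes) and deposited FPKM values per gene, computed with Cufflinks 2.1.1. Their methods name a human reference of Ensembl, yet every identifier in the table is a mouse one. FPKM removes length and library size, so a few very abundant transcripts lower all other values of a library. Counts were not used here. Symbols and GRCm38 coordinates came from GENCODE mouse release 21, and promoter sequences from RefSeq (GRCm38.p6).

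Groups were compared pairwise on log2(FPKM + 1), 3 libraries a group, by the moderated linear models of limma 3.58.1 (R 4.3.3, eBayes with a mean-variance trend). A gene entered when its mean reached 1 FPKM, p-values were adjusted by Benjamini-Hochberg over all genes entered, and DEGs needed both an adjusted p below 0.05 and a 1.5-fold change. Fold changes on this scale understate those of genes near 1 FPKM. Adjusted p-values of single genes in the text come from this fit. Shares were compared by exact permutation in scipy 1.17.1. The 10 genes and all lists were chosen with earlier results of these data known. Beside the 10 genes, the text names every called gene and the extremes of 2 further lists, overlapping or adjacent genes and the most similar genes, apart from items that are not reported here. Nothing in the labels ties libraries by number, but deviations of equally numbered HFD and ND libraries correlated (r = 0.547, 0.342 and 0.122). HFD replicate 3 correlated more with ND replicate 2 (r = 0.626) than with ND replicate 3. The main fits held no replicate block, so values of HFD against ND are unpaired unless a block is named. The methods state separate mice for the HFD and TJ libraries. For the ND and GT libraries no source used here does, so p-values there measure the spread between libraries, which may be technical.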

Additional observations from a re-analysis of the deposited data

How the results depend on the processing

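Under alternative settings 737 values of single genes were fitted, and 645 kept direction and side of the threshold. A further 47 fell short of it, 12 newly passed it and 33 changed sign. Only genes called in the starting fit could fall short. In TJ against HFD the call was kept in 10 settings and lost in 7 for Cpt1b, and kept in 8 and lost in 10 for both Hadh and Echs1. In HFD against ND without ND replicate 1 it was kept in 3 and lost in 7 for Cpt1a. There it was kept in 2 and lost in 8 for Hadha, and kept in 5 and lost in 5 for Echs1. Causes were not tested beyond what a setting does by construction. Over all genes, the calls ranged over the alternatives from 0 to 3412 for TJ against HFD (2366 as reported), from 0 to 1589 for GT against HFD (464), from 4 to 1659 for TJ against GT (18) and from 0 to 6057 for HFD against ND (255). The highest counts for the last 3 came with array weights, whose estimation stopped before it converged in all 4 comparisons. In the TJ against HFD comparison, 0 of the 10 genes were called with no filter on low values, with all 12 libraries in 1 fit and, chosen after seeing the data, without HFD replicates 1 and 2. The count was 1 (Cpt1b) with the replicate block, with the length trend removed and with both, and 0 to 4 when 1 library was left out. With the block alone the adjusted p-values in limma were 0.0396 for Cpt1b, 0.0567 for Hadh and 0.0527 for Echs1, and Mlycd was not called. Of the 25 further genes 3 were called with the block, or 2 with the length trend removed as well. The median of the 10 genes was 0.37 under median-of-ratios scaling, 0.16 under quantile normalization, 0.11 with the length trend removed (with or without the block) and 0.15 to 0.30 with 1 library left out, and Hadhb was 0.026 under median-of-ratios scaling.

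In the GT against HFD comparison, 2 genes were called under median-of-ratios scaling (Hadh 0.64, Echs1 0.59) and 1 with array weights (Cpt1b, -0.92). The median was 0.37 with a mean of at least 5 FPKM and 0.40 under median-of-ratios scaling. Signs changed for Cpt1a (0.017 under median-of-ratios scaling) and Hadhb (0.098 under median-of-ratios scaling, 0.058 under quantile normalization, 0.032 with array weights, -0.047 to 0.027 with 1 library left out). With the replicate block 5 of all genes were called instead of 464, and 0 of the 10, 0 of the 25 further genes and 0 of the regulators. Between TJ and GT the median was -0.23 under quantile normalization, -0.14 with the length trend removed (with or without the block) and -0.11 to -0.027 with 1 library left out. Signs changed for Acadl (0.0020 under median-of-ratios scaling, -0.059 to 0.0041 with 1 library left out), Acadvl (-0.080 under quantile normalization, -0.040 with the length trend removed with or without the block, -0.069 with array weights, -0.11 to 0.22 with 1 library left out) and Acadm (-0.16 under quantile normalization, -0.087 with the length trend removed with or without the block).

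In the HFD against ND comparison, 2 genes were called with array weights (Cpt1b -1.33, Echs1 -0.65), where Hadh was -0.35, and under median-of-ratios scaling Hadh and Echs1 were -0.029 and -0.12. Without ND replicate 1, 3 were called, and the signs of Cpt1b (0.011), Acadl (-0.015), Acadm (-0.032), Hadh (-0.60) and Echs1 (-0.89) changed, while leaving out ND replicate 2 gave the other extreme (-2.47, 1.91, 1.96, 0.72 and 0.73). Without ND replicates 1 and 3 and HFD replicate 1, chosen after seeing the data, 6 were called in a fit of 1 ND library against 2 HFD libraries, which alone give the spread, with Cpt1b at 1.16, Acadl -0.33, Acadm -0.41, Hadhb -0.069 (1.67 without ND replicate 2), Hadh -0.89 and Echs1 -1.20. Starting from the fit without ND replicate 1, settings also added after seeing the data, 0 were called with the replicate block and under median-of-ratios scaling, and 0 to 4 with a further library left out (1 ND library where it was an ND library), with medians of -0.34 to 0.015. Outside the HFD and ND groups, libraries shared only a number: deviations of equally numbered libraries correlated at -0.05 to 0.23 (TJ and HFD), -0.07 to 0.20 (GT and HFD) and -0.21 to 0.37 (TJ and GT).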
